A study of Mus musculus with 8 samples.

Results

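*Irx1* and *Irx2* are 2 genes of the Iroquois family of homeodomain transcription factors, and they are followed here through every cell type of islets from vehicle-treated and FAKi-treated mice. They were chosen by name as transcription factors associated with the glucagon-producing α-cell, and their rows are 2 of the 19945 genes in the single-cell count table. Both lie on mouse chromosome 13 (mm10), *Irx1* at chr13:71957921-71963723 on the minus strand and *Irx2* at chr13:72628820-72634198 on the plus strand, with 665096 bases between them.

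Islets were isolated and handpicked from wild-type mice that had received vehicle or the focal adhesion kinase inhibitor PF562271 (FAKi) by oral gavage for 3 weeks, in 2 daily doses of 50 mg/kg. They were taken 10 days after the last dose, with islets of 5 mice pooled per group, and sequenced by droplet-based 3′ scRNA-seq. The series lists 8 samples, taken here as 4 lanes for each of the 2 conditions with 1 library behind them, so no test across animals can be made, and intervals below are 95% intervals for counting error only. Strain and age of these mice, other than wild type, are not given in the labels.

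Homeodomain transcription factors of the Iroquois family bind DNA through a homeodomain with a 3-amino-acid loop extension and pattern embryonic tissues, including the nervous system and heart. Their genes sit in clusters in which neighbours share regulatory DNA. In the pancreas, *Irx1* and *Irx2* are among the transcription factors known to be enriched in α-cells over β-cells.

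The counting unit is the unique molecular identifier (UMI), which marks 1 captured RNA molecule. UMIs of a gene were summed over the cells of a class and divided by all UMIs of those cells to give CPM (counts for every 1000000 UMIs). The vehicle library holds 3776 cells and 59514118 UMIs and the FAKi library 3183 cells and 57836783 UMIs. The authors' annotation puts 273 vehicle and 434 FAKi cells in the α-cell class, with a median of 13126 and 13262.5 UMIs per cell. Of 6 α-cell markers listed, *Gcg*, *Ttr*, *Gc*, *Slc7a2* and *Slc38a5* were found at 114.8 CPM or more in α-cells of both libraries, and *Loxl4* had 0 and 1 UMI. *Gcg*, *Ttr*, *Slc7a2* and *Slc38a5* were higher there than in the annotated β- and δ-cells of the same library. *Gc* did not set α-cells apart from δ-cells, at 302 and 206 CPM against 251 and 231 CPM. The libraries share 4 cell barcodes, none of them annotated as an α-cell.

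The start of *Irx2* faces the start of *Gm20554*, a long intergenic noncoding RNA on the minus strand at chr13:72626213-72628564, and the annotated starts are 256 bases apart. The 250 bases before the *Irx2* start, which fill almost all of that gap, are shown because both genes are followed below. The sequence is from RefSeq (GRCm38.p6, chr13:72628570-72628819, plus strand), and 1 of the 2 genes had an entry. Capitals mark the GC box GGGCGG, found 2 times, and the CCAAT box CCAAT, found 1 time.

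Irx2 promoter: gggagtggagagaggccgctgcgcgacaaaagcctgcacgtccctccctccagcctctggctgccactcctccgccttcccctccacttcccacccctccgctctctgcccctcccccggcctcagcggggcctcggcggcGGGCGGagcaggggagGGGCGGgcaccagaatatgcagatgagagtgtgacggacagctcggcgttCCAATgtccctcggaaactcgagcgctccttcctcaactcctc

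The GC boxes begin 109 and 93 bases before the start and the CCAAT box 43 bases before it, and none overlaps another. Searched on both strands, a GC box was present in 32.7% and a CCAAT box in 33.9% of 32851 mouse promoter windows of the same length. The TATA box TATAAA (12.4% of windows) and the Iroquois motif ACANNTGT (6.31% of windows) had no match in this window. It is 68.4% G or C and holds 19 CpG dinucleotides, a number reached by 19.7% of the windows. These matches describe the letters only.

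*Irx1* and *Irx2* were found above all in α-cells, in vehicle and FAKi islets alike. In α-cells *Irx1* had 289 UMIs in the vehicle library, or 76.2 CPM (67.7 to 85.6), and 453 UMIs in the FAKi library, or 75.4 CPM (68.6 to 82.7). *Irx2* had 349 UMIs, or 92.1 CPM (82.7 to 102), and 648 UMIs, or 107.8 CPM (99.7 to 117). Each value stands clear of every other class with at least 50 cells, as the plot of levels by class shows. 3′ UMI counts are not scaled by transcript length, and the 2 genes are therefore compared with themselves across cells and not with each other in level.

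**Figure D1:**
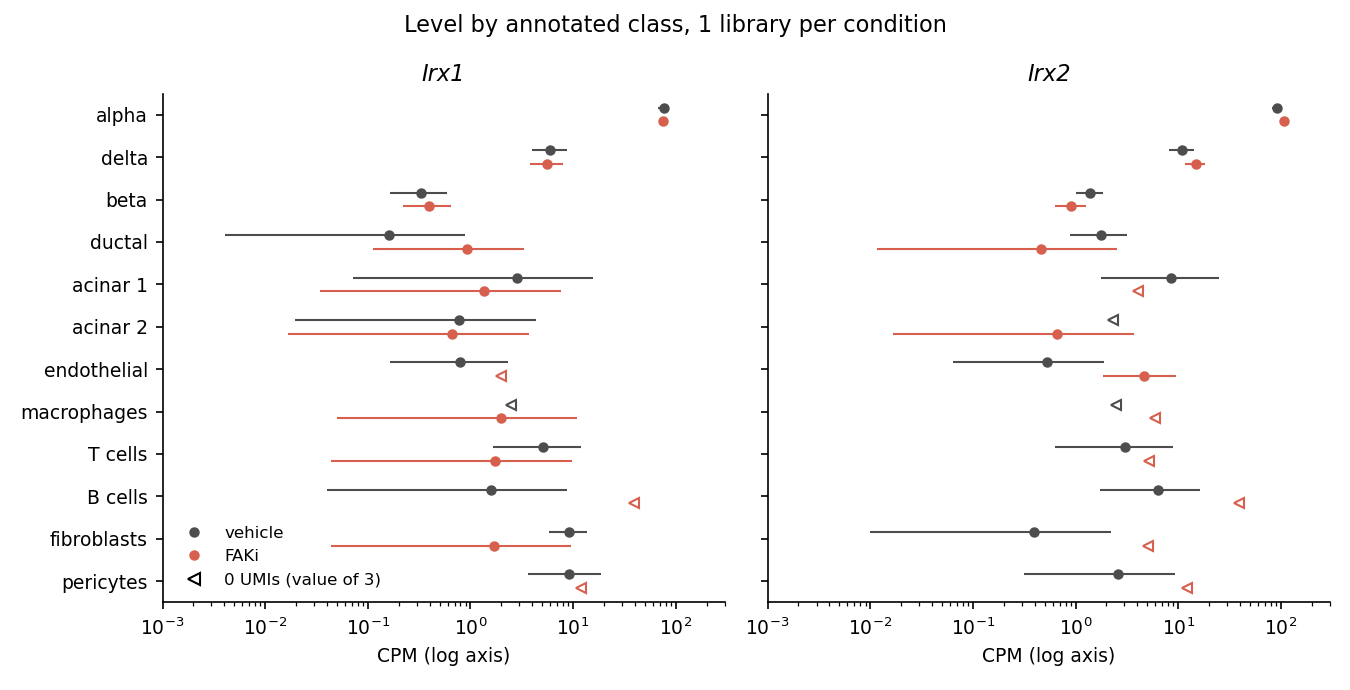
Level of *Irx1* (left) and *Irx2* (right) in CPM on a log axis for 12 annotated cell classes, with 1 point per library (grey vehicle, red FAKi) and exact Poisson 95% intervals; open triangles stand at the value of 3 UMIs where none was found. Both genes stand highest in α-cells, at 75.4 to 107.8 CPM, and next in δ-cells or, for *Irx1*, also in vehicle fibroblasts and pericytes at about 9.13 CPM.

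In β-cells, the insulin-producing cells, *Irx1* had 11 and 15 UMIs in 1076 vehicle and 1336 FAKi cells, or 0.331 and 0.391 CPM. *Irx2* had 46 and 35 UMIs there, or 1.38 and 0.912 CPM. The ratio of CPM of α-cells over β-cells was 231 (127 to 467) in the vehicle library and 193 (116 to 347) in the FAKi library for *Irx1*. It was 66.6 (48.9 to 92.7) and 118 (84.1 to 171) for *Irx2*. Both genes thus were at least 4-fold higher in α-cells in both libraries, where 3.57% of 10204 genes were so in the vehicle library and 4.79% of 10511 in the FAKi library, counting genes for which the 2 classes together had 100 UMIs or more. The classes had been drawn by the authors from the same expression values, so these ratios describe the annotation and are no test of it.

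The β-cell levels were set beside those of cells that make neither hormone nor, as far as known, these factors. In endothelial and immune cells together, 953 vehicle and 361 FAKi cells, *Irx1* had 9 and 2 UMIs (1.36 and 0.752 CPM) and *Irx2* 9 and 7 UMIs (1.36 and 2.63 CPM). β-cells over these cells gave 0.242 (0.0913 to 0.662) and 0.520 (0.121 to 4.69) for *Irx1*, and 1.01 (0.490 to 2.36) and 0.347 (0.152 to 0.925) for *Irx2*. Few cells carry this reference level. The 9 vehicle *Irx1* UMIs lay in 4 cells, 5 of them in 1 T cell, and the 7 FAKi *Irx2* UMIs in 3 endothelial cells, of which 2 had been called doublets. Without the cell with most UMIs the *Irx1* ratios became 0.542 (0.160 to 2.33) and 1.03 (0.159 to 43.5) and those of *Irx2* 1.51 (0.643 to 4.33) and 0.604 (0.216 to 2.34).

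Some of the endothelial and immune cells had *Gcg* as their most abundant hormone. Without those, 7 vehicle and 3 FAKi cells, *Irx2* in β-cells was 8.97-fold (1.53 to 362) and 2.40-fold (0.404 to 97.7) higher, on 1 reference UMI in each library, and the vehicle interval then lies above 1. For *Irx1* the ratios were 2.15 (0.312 to 92.3) and 0.515 (0.120 to 4.64). No β-cell was left out by this step, and β-cell cluster 10, described below, held 34 of the 46 vehicle *Irx2* UMIs. β-cell clusters 0 and 1 had *Irx2* at 0.402 and 0.625 CPM, on 12 and 22 UMIs. The reference cells kept had 0.154 and 0.379 CPM. An interval for those clusters over the reference cells was not computed. Subtracting the level of all the endothelial and immune cells of the same library, a choice that rests on the same few cells, changed the *Irx2* log2 ratio of α- over β-cells with 1 CPM added from 5.29 to 6.49 in the vehicle and from 5.83 to 6.73 in the FAKi library. Whether β-cells stand above such cells therefore depends on a few reference cells and on the β-cells counted, and is not settled at this depth.

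Other islet transcription factors were compared between α- and β-cells in the same way. *Pou3f4*, a POU-domain factor, was 87.8-fold (35.2 to 282) and 85.9-fold (43.8 to 192) higher in α-cells than in β-cells in the vehicle and FAKi library, on 50 and 121 UMIs in α-cells. *Foxp2*, a forkhead factor, was 2.45-fold (1.85 to 3.20) and 2.25-fold (1.74 to 2.87) higher. Past 4-fold were 0 of 8 factors shared by all islet cells (*Pax6*, *Isl1*, *Neurod1*, *Nkx2-2*, *Rfx6*, *Insm1*, *Foxa2*, *Myt1*) and 0 of 3 β-cell factors (*Pdx1*, *Nkx6-1*, *Mafa*) in either. The median log2 ratio was 0.10 and 0.25 for the shared factors and -4.74 and -4.27 for the β-cell factors, beside 0.56 and 0.64 over all genes tested. *Hhex*, a δ-cell factor, was also past 4-fold, at 18.2-fold and 12.6-fold, and 116 of its 118 UMIs in vehicle α-cells lay in cells whose most abundant hormone was *Sst*, described below.

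Of the 4 Iroquois genes analysed, only *Irx1* and *Irx2* had UMIs in α-cells. *Irx3* and *Irx5*, which neighbour each other on chromosome 8 (*Irx3* at chr8:91798525-91802067, *Irx5* at chr8:92357625-92376286), had 0 UMIs in the α-cells of both libraries, where 3 UMIs would be 0.791 and 0.499 CPM. *Irx3* was found instead in endothelial cells, with 77 and 31 UMIs or 20.4 and 20.6 CPM, while *Irx5* had at most 3 UMIs in any class. *Irx1* and *Irx2* in turn had 3 and 2 UMIs in the 543 vehicle endothelial cells. *Irx4* and *Irx6* were not analysed here.

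Detection in single cells depends on depth, and each cell was therefore thinned to 5000 UMIs, leaving out 21 vehicle and 39 FAKi α-cells with fewer. At that depth *Irx1* was detected in 78 of 252 vehicle α-cells, or 31.0% (25.3 to 37.1), and in 109 of 395 FAKi α-cells, or 27.6% (23.2 to 32.3). *Irx2* was detected in 88 of 252, or 34.9% (29.1 to 41.2), and in 144 of 395, or 36.5% (31.7 to 41.4). The 2 libraries overlap within their intervals for both genes. Without thinning the shares were 46.9% and 53.5% for *Irx1* and 59.3% and 68.0% for *Irx2*.

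Elsewhere detection at 5000 UMIs was rare. In β-cells it was 0.0981% and 0.0816% for *Irx1* and 0.491% and 0.489% for *Irx2*, with 57 and 110 cells left out. In the endothelial and immune cells, where neither gene is thought to be active and which have a median of 5186 and 4883 UMIs against 30792.5 and 30427.5 in β-cells, it was 0.202% and 0.578% for *Irx1* and 0.607% and 0.578% for *Irx2*, with 459 and 188 cells left out. A second random draw of UMIs gave 0.785% (0.3395 to 1.54) and 0.734% (0.336 to 1.39) for *Irx2* in β-cells against 0.405% (0.0491 to 1.45) and 0.578% (0.0146 to 3.18) in those cells. The intervals overlap in both draws, so at this depth no difference between β-cells and these cells was detectable. In δ-cells *Irx1* was detected in 1.44% (0.395 to 3.66) and 2.23% (0.901 to 4.54) and *Irx2* in 2.89% (1.26 to 5.61) and 6.37% (3.93 to 9.67) of cells, with 51 and 44 left out.

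**Figure D2:**
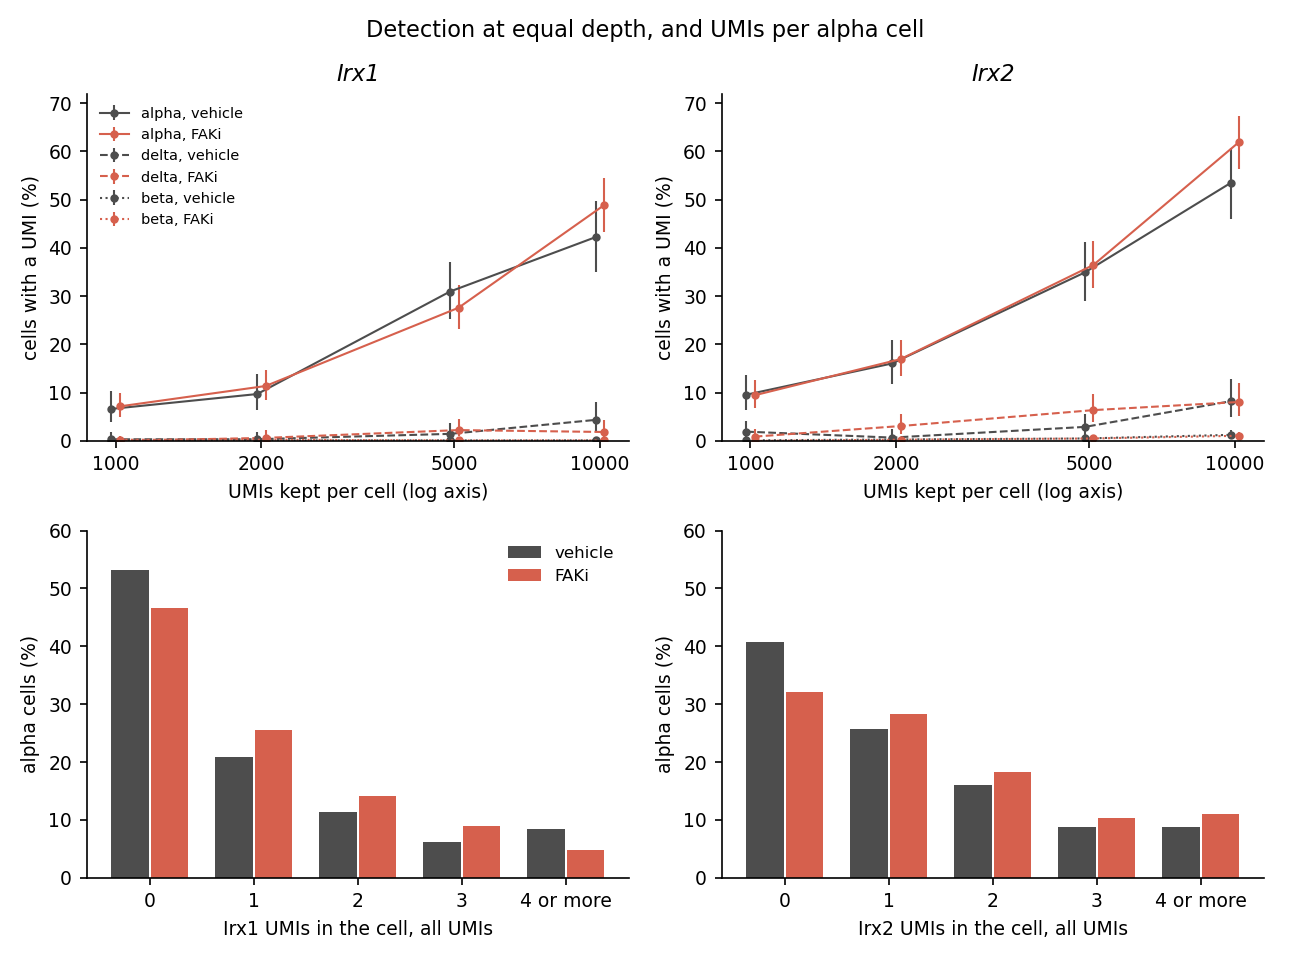
Top, share of cells in percent with a UMI of *Irx1* (left) or *Irx2* (right) after thinning to 1000, 2000, 5000 or 10000 UMIs per cell (log axis), for α-, δ- and β-cells of each library with Clopper-Pearson 95% intervals; bottom, percent of α-cells with 0, 1, 2, 3 or at least 4 UMIs of the gene, without thinning. The α-cell shares climb with depth, from 6.62% at 1000 to 42.3% at 10000 UMIs for *Irx1* in the vehicle library, while β-cells stay near 0.

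Both genes were sparse even in α-cells. *Irx1* had 0 UMIs in 145 of 273 vehicle and 202 of 434 FAKi α-cells, 1 UMI in 57 and 111, and at least 4 UMIs in 23 and 21. *Irx2* had 0 UMIs in 111 and 139, 1 UMI in 70 and 123, and at least 4 UMIs in 24 and 48. No single cell carried the result, since the cell with most UMIs held 9 of the 289 *Irx1* UMIs in the vehicle library and 12 of the 453 in the FAKi library, and 8 of the 349 and 9 of the 648 *Irx2* UMIs.

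In the same α-cells the 2 genes were found together in 13.5% (9.53 to 18.3) of vehicle and 11.4% (8.43 to 15.0) of FAKi cells at 5000 UMIs. *Irx1* alone was found in 17.5% and 16.2%, *Irx2* alone in 21.4% and 25.1%, and neither in 47.6% and 47.3%. *Irx2* was present in 43.6% (32.4 to 55.3) of vehicle α-cells with *Irx1* and in 31.0% (24.3 to 38.5) of those without it. The FAKi library gave 41.3% (31.9 to 51.1) and 34.6% (29.1 to 40.4). The intervals overlap in both libraries. The class also holds cells with another leading hormone, described below. Among them 31 vehicle and 48 FAKi cells led by somatostatin had 1 and 2 *Irx1* UMIs. Shares for α-cells led by *Gcg* alone were not computed.

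The annotated classes were not pure in hormone content, and this bears on where the 2 genes were counted. The α-cell class is made of clusters 5 and 9 of the deposited clustering, and the δ-cell class of clusters 6 and 8. Each endocrine cell was therefore also placed by the hormone with most UMIs in it, among glucagon (*Gcg*), insulin (*Ins1* with *Ins2*), somatostatin (*Sst*), pancreatic polypeptide (*Ppy*) and peptide YY (*Pyy*). This grouping uses neither *Irx1* nor *Irx2*.

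Cluster 5 (186 vehicle and 266 FAKi cells) was led by *Gcg* in 89.2% and 96.2% of its cells. Cluster 9 (87 and 168 cells) was mixed, with 44 and 111 cells led by *Gcg* (50.6% and 66.1%), 31 and 48 led by *Sst* (35.6% and 28.6%) and 9 and 8 led by *Ppy*. Its *Sst*-led cells had *Hhex* at 397 and 455 CPM against 405 and 475 CPM in the *Sst*-led cells of δ-cell cluster 6. Against the α-cell label of this cluster, those cells carry the leading genes of δ-cells.

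Within cluster 9 the UMIs of both genes lay mainly in the *Gcg*-led cells. In the *Sst*-led cells of α-cell cluster 9, *Irx1* had 1 and 2 UMIs and *Irx2* 0 and 10 UMIs. In its *Gcg*-led cells *Irx1* stood at 65.6 and 80.0 CPM and *Irx2* at 84.3 and 111 CPM, and in those of cluster 5 *Irx1* at 103 and 85.1 CPM and *Irx2* at 117 and 118 CPM.

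The δ-cell class was mixed as well. Cluster 6 (188 and 195 cells), of which 186 and 195 were *Sst*-led, had 2 and 0 *Irx1* UMIs and 6 and 13 *Irx2* UMIs. Cluster 8 (140 and 163 cells) held the remaining 26 and 31 *Irx1* UMIs (11.0 and 10.5 CPM) and 45 and 69 *Irx2* UMIs (19.1 and 23.5 CPM). Only 24 cells of cluster 8 in each library were led by *Sst*, whereas 68 and 85 were led by *Ppy* and 20 and 29 by *Gcg*, so its leading genes go against the δ-cell label. The *Gcg*-led cells of cluster 8 alone held 20 and 24 of the *Irx1* UMIs, at 72.3 and 75.7 CPM, or 0.740 (0.445 to 1.16) and 0.902 (0.572 to 1.36) of the level in *Gcg*-led α-cells. For *Irx2* they stood at 43.4 and 114 CPM, or 0.386 (0.197 to 0.683) and 0.971 (0.674 to 1.36) of that level.

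Levels also differed between classes among cells led by the same hormone. The 24 vehicle and 10 FAKi insulin-led cells of the δ-cell class had 9 and 5 *Irx2* UMIs, or 44.7 and 53.4 CPM, against 1.38 and 0.912 CPM in β-cells as a class. *Sst*-led FAKi cells had *Irx2* at 26.0 CPM in the α-cell class and 5.996 CPM in the δ-cell class, whereas *Sst*-led vehicle cells had 0 UMIs in the α-cell class and 5 UMIs, or 2.14 CPM, in the δ-cell class. With so few cells and UMIs in the vehicle α-cell class, no order of the classes among vehicle *Sst*-led cells can be read.

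**Figure D3:**
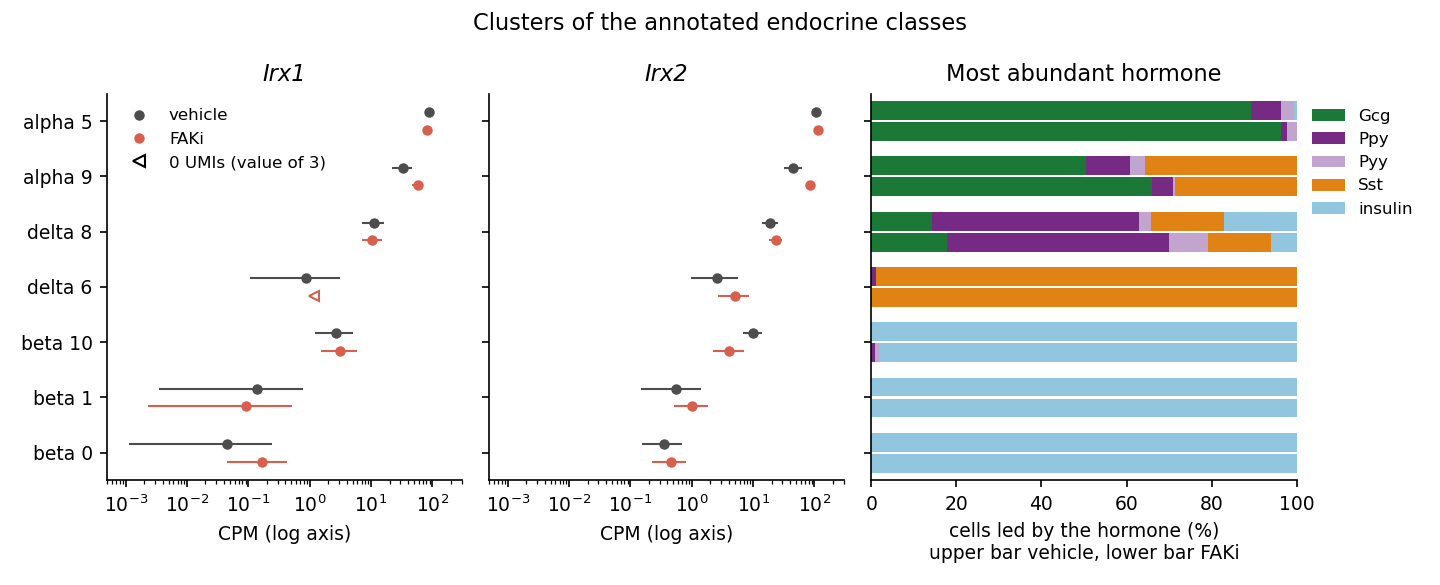
Level of *Irx1* (left) and *Irx2* (middle) in CPM on a log axis for 7 endocrine clusters, labelled by annotated class and cluster number, with Poisson 95% intervals (grey vehicle, red FAKi; open triangle, value of 3 UMIs where none was found); right, percent of each cluster's cells led by each hormone. The order of *Irx1* runs from α-cell cluster 5 at 89.4 and 81.8 CPM to β-cell clusters 0 and 1 under 0.2 CPM, and clusters 9 and 8 hold cells led by several hormones.

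Over all α-, β- and δ-cells, the *Gcg*-led group of 230 vehicle and 396 FAKi cells had *Irx1* at 95.5 (85.0 to 107) and 83.5 (76.2 to 91.4) CPM and *Irx2* at 106 (95.3 to 119) and 117 (108 to 126) CPM. The *Ppy*-led group of 92 and 98 cells, most of them in δ-cell cluster 8, had less of both genes. *Irx1* had 4 and 5 UMIs there, or 1.79 (0.488 to 4.59) and 2.17 (0.705 to 5.07) CPM. *Irx2* had 42 and 26 UMIs, or 18.8 (13.6 to 25.4) and 11.3 (7.38 to 16.6) CPM.

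*Gcg*-led over *Ppy*-led cells gave a ratio of 53.3 (20.6 to 197) and 38.5 (16.4 to 119) for *Irx1*. For *Irx2* it was 5.66 (4.10 to 8.0) and 10.3 (6.99 to 16.0), and the intervals of the 2 genes do not overlap in either library. This separation depended on which *Ppy*-led cells were counted. Where the leading hormone had at least 2 times the UMIs of the next, the FAKi ratio was 108 (19.2 to 4259) for *Irx1*. That of *Irx2* was 25.2 (11.5 to 68.9), and these intervals overlap. Vehicle *Ppy*-led cells then had 0 *Irx1* UMIs and 24 *Irx2* UMIs. The vehicle *Irx1* interval starts at 36.5 and lies above the *Irx2* ratio of 6.07 (4.01 to 9.62).

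The *Ppy*-led cells were also not alike across classes. The 22 vehicle and 12 FAKi *Ppy*-led cells of the α-cell class had *Irx2* at 39.6 and 43.2 CPM, on 19 and 8 UMIs, against 13.1 and 8.58 CPM in the 70 and 85 of the δ-cell class. Against those of the δ-cell class alone, the FAKi ratios of 58.4 (19.8 to 284) for *Irx1* and 13.6 (8.54 to 23.1) for *Irx2* overlap, and in the vehicle library *Irx1* had 0 UMIs there, with an interval that starts at 45.1 and so lies above the *Irx2* ratio of 8.11 (5.31 to 13.0). Against those of the α-cell class, *Irx1* gave 11.5 (4.43 to 42.4) and 7.73 (2.13 to 64.0) and *Irx2* 2.69 (1.69 to 4.52) and 2.70 (1.36 to 6.28), overlapping in both libraries. The ratio of *Irx1* was the higher in each of these groupings that gave one.

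Unequal ratios of the 2 genes were not particular to *Ppy*-led cells. *Gcg*-led over insulin-led cells gave 178 (110.5 to 304) and 200.5 (122 to 354) for *Irx1* and 62.5 (47.1 to 84.3) and 112 (81.5 to 158) for *Irx2*, with intervals apart in the vehicle library alone. *Gcg*-led over *Sst*-led cells gave 62.8 (24.3 to 232) and 51.0 (21.7 to 158) for *Irx1* and 56.0 (23.7 to 174) and 13.7 (9.28 to 21.2) for *Irx2*, with intervals apart in the FAKi library alone. For *Gcg*-led over all *Ppy*-led cells, *Pou3f4* gave 6.73 (2.69 to 21.7) and 9.53 (3.97 to 29.9), overlapping both *Irx2* and *Irx1* in each library. *Foxp2*, with 0.729 (0.495 to 1.07) and 0.825 (0.561 to 1.23), overlapped neither Iroquois gene.

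**Figure D4:**
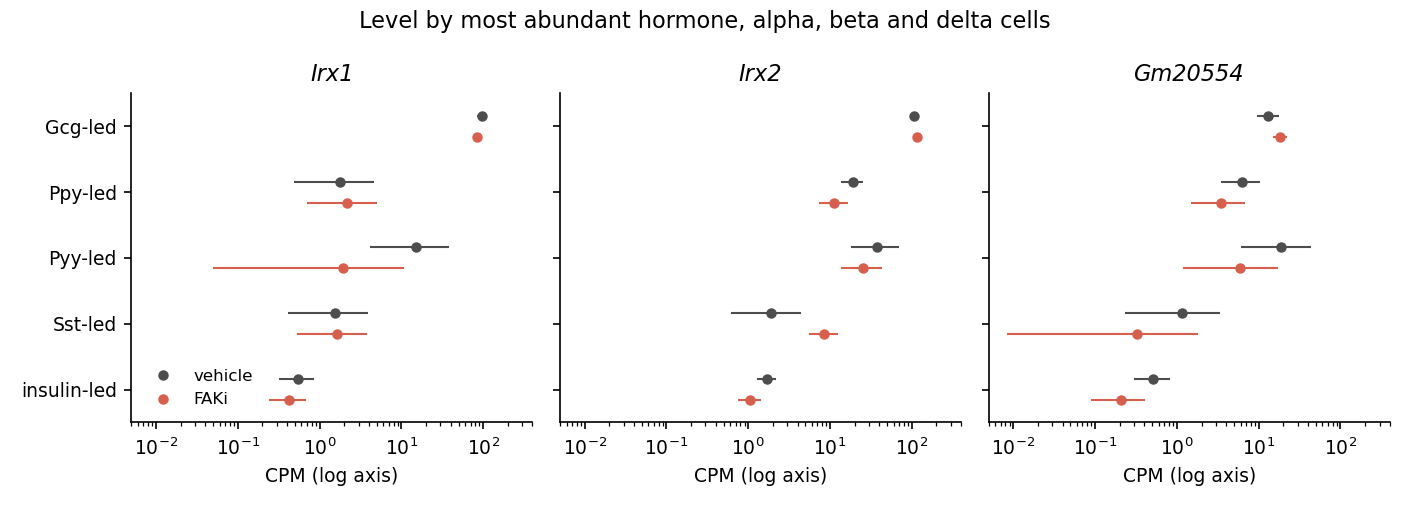
Level of *Irx1*, *Irx2* and *Gm20554* in CPM on a log axis for α-, β- and δ-cells grouped by their most abundant hormone, with 1 point per library (grey vehicle, red FAKi) and Poisson 95% intervals. In *Ppy*-led cells *Irx1* lies at 1.79 and 2.17 CPM and *Irx2* at 18.8 and 11.3 CPM, and *Gm20554*, a noncoding RNA beside *Irx2*, lies at 6.27 and 3.48 CPM against 13.1 and 18.2 CPM in *Gcg*-led cells.

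A measure that does not depend on depth is the share of *Irx1* among the UMIs of both genes. It was 47.3% (43.3 to 51.3) and 41.7% (38.8 to 44.6) in *Gcg*-led cells, and 8.70% (2.42 to 20.8) and 16.1% (5.45 to 33.7) in *Ppy*-led cells. Insulin-led cells had 24.0% (14.9 to 35.3) and 28.6% (17.3 to 42.2), and *Sst*-led cells 44.4% (13.7 to 78.8) and 16.1% (5.45 to 33.7), so a low share was found outside *Ppy*-led cells too. At 5000 UMIs per cell *Irx1* was detected in 2 of 89 vehicle and 1 of 95 FAKi *Ppy*-led cells and *Irx2* in 6 and 5, against 76 of 208 and 113 of 359 *Gcg*-led cells for *Irx1* and 84 and 147 for *Irx2*. Without thinning, *Irx2* was found in 26.1% and 17.3% of *Ppy*-led cells and *Irx1* in 3.26% and 5.10%, at a median depth of 25842 and 23991 UMIs against 13243 and 13684 in *Gcg*-led cells. The groups were set up after earlier results of these data had been seen.

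The 2 genes were also counted beside *Gcg* in the same cells. *Gcg*-led α-cells had 3.67 (3.28 to 4.09) and 3.93 (3.63 to 4.25) *Irx2* UMIs for every 10000 *Gcg* UMIs in the vehicle and FAKi library. The *Ppy*-led cells of cluster 8 had 201 (126 to 305) and 26.7 (15.8 to 42.2). β-cell clusters 0 and 1 had 38.9 (20.1 to 68.0) and 14.5 (9.11 to 22.0), on 12 and 22 *Irx2* UMIs, so values above that of *Gcg*-led α-cells were found in cells with little *Irx2* too. The hormone groups were drawn on *Gcg* among others, so cells led by another hormone hold few *Gcg* UMIs. The *Ppy*-led cells of cluster 8 had 1094 and 6747 of them. A high value there thus follows in part from the grouping and is no test. The part of free RNA in the levels of *Ppy*-led cells was not tested. For *Irx1* the *Gcg*-led α-cells had 3.19 and 2.82, while the *Ppy*-led cells of cluster 8 had 0 UMIs in the vehicle and 3 UMIs in the FAKi library, the latter at 4.45 (0.917 to 13.0).

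*Sst*-led cells had little of either gene. *Irx1* had 4 and 5 UMIs in 241 vehicle and 267 FAKi cells, or 1.52 and 1.64 CPM, and *Irx2* 5 and 26 UMIs, or 1.90 (0.617 to 4.44) and 8.52 (5.56 to 12.5) CPM. The FAKi over vehicle ratio of *Irx2* was 4.48 (1.69 to 14.9) and that of *Irx1* 1.08 (0.232 to 5.43). Without called doublets they were 4.02 (1.495 to 13.5) and 0.437 (0.0395 to 3.05), the latter on 2 FAKi and 4 vehicle UMIs, so *Irx1* has no settled direction here. Beside it, the *Gcg* level of *Sst*-led cells was 10110 CPM against 383 CPM in cluster 9 and 2037 against 270 CPM in cluster 6, higher in the FAKi library in both. A single FAKi cell held 76.1% of those UMIs in cluster 6 and another 41.8% in cluster 9, and without them the *Gcg* level was 493 and 6501 CPM. The median cell had 422 against 163 CPM in cluster 6 and 796 against 309 CPM in cluster 9. *Irx2* UMIs per 10000 *Gcg* UMIs stood at 66.0 (21.4 to 154) in the vehicle and 28.0 (18.3 to 41.0) in the FAKi *Sst*-led cells, and these intervals overlap. The FAKi value counts the single cells named above, which held 4027 and 1629 of its 9280 *Gcg* UMIs. It was not computed without them, so these values give no order of the libraries. The part of free RNA, or of mixtures not called as doublets, in this difference was not tested.

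Many of the UMIs counted in β-cells sat in 1 small cluster with other hormones. β-cell cluster 10, with 121 vehicle and 115 FAKi cells, held 9 of the 11 and 10 of the 15 *Irx1* UMIs and 34 of the 46 and 13 of the 35 *Irx2* UMIs. The other 22 FAKi *Irx2* UMIs lay in clusters 0 and 1. That is 2.63 and 3.17 CPM for *Irx1* and 9.95 and 4.12 CPM for *Irx2*. Nearly all its cells were insulin-led, yet the 121 and 113 insulin-led cells also carried *Gcg* at 10276 and 12203 CPM.

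Its *Irx1* UMIs per 10000 *Gcg* UMIs, 2.56 (1.17 to 4.87) and 2.65 (1.27 to 4.88), overlap those of *Gcg*-led α-cells. For *Irx2* the value of 3.45 (1.84 to 5.90) in the FAKi library does so too, and the vehicle value of 9.68 (6.71 to 13.5) lies above. In the larger β-cell clusters 0 and 1 *Irx1* stayed at 0.164 CPM or less and *Irx2* at 1.01 CPM or less. The 8 vehicle β-cells with an *Irx1* UMI had a median of 55675 CPM of *Gcg* against 96.3 CPM in the other β-cells, and none of them had been called a doublet. The 11 FAKi β-cells with one had 302 against 215 CPM, and 5 of them had been called doublets. For *Irx2* the medians were 232 against 95.3 CPM in the vehicle and 346 against 215 CPM in the FAKi library, with 2 of 33 and 6 of 30 cells called doublets. The high *Gcg* of cells with *Irx1* was thus seen in the vehicle library and not in the median FAKi cell.

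The comparison of treatments asks whether FAKi islets, studied for new insulin-producing cells, differed in these α-cell genes. In α-cells the FAKi over vehicle ratio was 0.989 (0.851 to 1.15) for *Irx1* and 1.17 (1.03 to 1.34) for *Irx2*. Neither was 1.5-fold higher or lower, as 3.17% and 1.59% of the 7795 genes with at least 100 UMIs in α-cells were, where the median log2 ratio was 0.03. *Pou3f4* was past 1.5-fold at 1.53 (1.09 to 2.17), and *Foxp2* was at 0.802 (0.580 to 1.11). None of 8 shared factors, 1 β-cell factor tested and *Hhex* was past 1.5-fold.

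The 2 α-cell clusters gave different ratios. In cluster 5 *Irx1* was at 89.4 and 81.8 CPM, a ratio of 0.915 (0.777 to 1.08), and *Irx2* at 106 and 116 CPM, a ratio of 1.09 (0.947 to 1.26). In cluster 9 *Irx1* was at 32.8 and 58.4 CPM, a ratio of 1.78 (1.16 to 2.79), and *Irx2* at 45.3 and 85.7 CPM, a ratio of 1.89 (1.32 to 2.76). Cluster 9 also had the larger share of *Gcg*-led cells in the FAKi library, 66.1% (58.4 to 73.2) against 50.6% (39.6 to 61.5).

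Among *Gcg*-led α-cells alone, 210 vehicle and 367 FAKi cells, the ratio was 0.859 (0.738 to 1.00) for *Irx1* and 1.04 (0.907 to 1.19) for *Irx2*. The interval of *Irx2* then includes 1. Within the *Gcg*-led cells of cluster 9 it was 1.22 (0.792 to 1.94) for *Irx1* and 1.32 (0.907 to 1.97) for *Irx2*, and within those of cluster 5 it was 0.822 (0.697 to 0.971) and 1.01 (0.870 to 1.17). *Pou3f4* was at 1.30 (0.921 to 1.87) in *Gcg*-led α-cells. With 1 library per condition, no ratio can be told apart from a difference between 2 pools of islets.

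**Figure D5:**
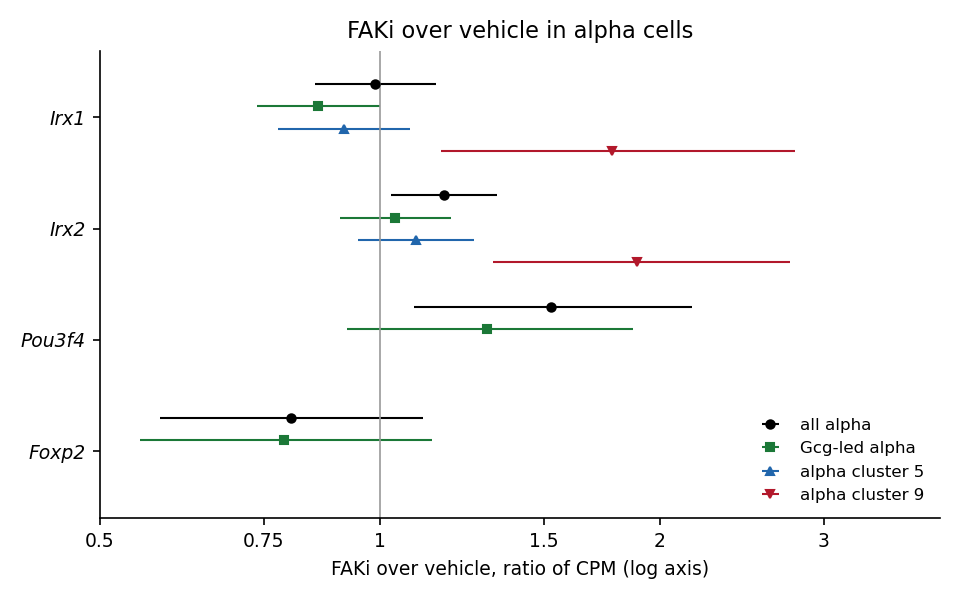
FAKi over vehicle ratio of CPM on a log axis for *Irx1*, *Irx2*, *Pou3f4* and *Foxp2*, with exact 95% counting intervals, in all α-cells (black circles) and in *Gcg*-led α-cells (green squares), and for *Irx1* and *Irx2* also in clusters 5 (blue) and 9 (red). *Irx1* and *Irx2* lie near 1 in *Gcg*-led α-cells, at 0.859 and 1.04, and above it in cluster 9, at 1.78 and 1.89.

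In the remaining endocrine groups, the FAKi over vehicle ratio in insulin-led cells was 0.775 (0.370 to 1.61) for *Irx1* and 0.612 (0.398 to 0.933) for *Irx2*. In *Ppy*-led cells it was 1.21 (0.261 to 6.11) and 0.601 (0.354 to 1.00). Without called doublets the insulin-led ratio was 0.310 (0.0999 to 0.823) for *Irx1*, on 6 FAKi and 17 vehicle UMIs, and 0.506 (0.312 to 0.808) for *Irx2*. The interval of *Irx1* then lies under 1. The insulin-led group is not the β-cell class alone. With doublets kept, its 24 vehicle δ-class cells and 1 α-class cell held 4 and 3 of the 18 *Irx1* UMIs. Its 10 FAKi δ-class cells held 1 of 16. β-cells as a class had *Irx1* at 0.331 and 0.391 CPM and *Irx2* at 1.38 and 0.912 CPM in the vehicle and FAKi library. For *Irx2* the ratios of the β-cell clusters lay on both sides of 1, with intervals that overlap. For *Irx1* they lay above 1 with doublets kept, with intervals that include 1. *Irx2* was at 0.414 (0.2005 to 0.805) in cluster 10 and at 1.55 (0.737 to 3.45) in clusters 0 and 1, where it had 22 FAKi and 12 vehicle UMIs. *Irx1* was at 1.203 (0.439 to 3.35) in cluster 10, and at 0.131 (0.00298 to 0.944) there without called doublets, on 1 and 9 UMIs, and at 2.12 (0.347 to 22.3) in clusters 0 and 1. With doublets kept, the ratios rest on 16 to 57 UMIs in insulin-led cells and 4 to 42 UMIs in *Ppy*-led cells per library.

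Outside the endocrine cells *Irx1* was found in connective tissue cells. Vehicle fibroblasts had 23 *Irx1* UMIs in 17 of 264 cells, or 9.13 CPM (5.79 to 13.7), 6.70-fold (2.99 to 16.5) over endothelial and immune cells, and 15.0-fold (5.11 to 59.5) without the T cell that held 5 of their 9 UMIs. At 5000 UMIs it was detected in 12 of 199 of them, 6.03% (3.15 to 10.3), with 65 left out, and in a second random draw of UMIs in 5, 2.51% (0.821 to 5.77). In the endothelial and immune cells the 2 draws gave 0.202% (0.00512 to 1.12) and 0.607% (0.125 to 1.76), and the second interval overlaps that of fibroblasts. The class was checked by its collagens, with *Col1a1* at 4146 CPM against 0.791 CPM in α-cells.

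Fibroblasts with an *Irx1* UMI had a median of 198 CPM of *Gcg*, and those without one 144 CPM. *Irx2* had 1 UMI in these cells, so *Irx1* made up 95.8% (78.9 to 99.9) of the UMIs of both genes, a share whose interval lies above those of α-cells and of every hormone group with at least 20 UMIs. The FAKi library had 63 fibroblasts with 1 *Irx1* UMI, and the ratio of 0.187 (0.00455 to 1.15) includes 1. Pericytes, the mural cells of capillaries, had 7 *Irx1* UMIs in 5 of 137 vehicle cells and none in 64 FAKi cells, where 3 UMIs would be 12.1 CPM. The vehicle pericytes carried *Gcg* at 6128 CPM as a class, and 1 of the 5 cells with *Irx1* had *Gcg* as its leading hormone. Without the cells led by *Gcg*, 135 pericytes had 5 *Irx1* UMIs, or 6.78 CPM, and no *Irx2* UMI.

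In the exocrine pancreas both genes were near the limit of counting or, for *Irx2* in vehicle ductal cells, near the level of endothelial and immune cells. The acinar class numbered 1 in the annotation had 1 *Irx1* UMI in each library and 3 and 0 *Irx2* UMIs in 161 and 297 cells, and the class numbered 2 had 1 and 1 *Irx1* and 0 and 1 *Irx2* UMIs in 86 and 114 cells. Ductal cells had 1 and 2 *Irx1* UMIs in 498 and 156 cells. They had 11 *Irx2* UMIs in the vehicle library, in 9 cells, or 1.76 CPM (0.879 to 3.15), where 3 UMIs would be 0.480 CPM, and 1 in the FAKi library. The vehicle interval overlaps that of vehicle endothelial and immune cells, at 1.36 CPM (0.623 to 2.59).

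*Gm20554*, whose start lies 256 bases from that of *Irx2*, had a like distribution. It had 49 and 101 UMIs in α-cells, or 12.9 and 16.8 CPM, and was 30.7-fold (16.7 to 60.3) and 92.1-fold (43.1 to 235) higher than in β-cells. In *Gcg*-led over *Ppy*-led cells it gave 2.10 (1.12 to 4.16) and 5.24 (2.56 to 12.5), overlapping *Irx2* and not *Irx1* in both libraries. Its FAKi over vehicle ratio in α-cells was 1.30 (0.916 to 1.87). The genes lie on opposite strands and do not overlap in the annotation.

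The genes with the pattern most like each of the 2 were sought by Pearson's r of log2(CPM + 1) over 20 points, which are 10 annotated classes in 2 libraries and share those libraries, among 14068 genes with at least 100 UMIs. For *Irx1* they were *Nsg2* (0.909), *Pdzrn4* (0.905), *Gm20554* (0.896), *Fsd1* (0.889) and *Hhatl* (0.881). For *Irx2* they were *Ctxn2* (0.928), *Tent5d* (0.921), *Avpr1b*, a vasopressin receptor (0.921), *Sertm1* (0.915) and *Serpina1a*, an α1-antitrypsin gene (0.911). *Irx1* and *Irx2* correlated at 0.804, which placed *Irx2* at rank 26 for *Irx1* and *Irx1* at rank 78 for *Irx2*. *Gm20554* ranked 3 and 6 and *Gcg* 68 and 20. Ranked by Spearman's rho, 0 of the 5 genes remained in either list, so the names depend on the measure.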

How the data were processed

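The submitters' processing notes name Cell Ranger, Seurat 3.1 and build mm10. The deposited values are raw UMI counts that the authors made with Cell Ranger from 10x Genomics 3′ libraries and did not normalize, for cells that had passed their filters. The percent of mitochondrial counts per cell was computed by the authors and deposited with their cluster and cell type annotation, which followed normalization with SCRAN, integration with scanorama and Louvain clustering. Among the deposited gene symbols, 23 read as dates, and no gene named here is among them. Gene positions are from GENCODE M21.

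Computed here were CPM of summed UMIs with exact Poisson intervals, ratios of CPM without a pseudocount with exact conditional binomial intervals, and shares with Clopper-Pearson intervals. Log2 ratios of gene lists are medians of such ratios. Each cell was thinned to 5000 UMIs with seed 0. Hormone groups needed at least 10 hormone UMIs in a cell, and all cells had them. Doublets were called with scrublet (68 vehicle, 57 FAKi cells) and kept. Genes named are *Irx1*, *Irx2*, genes of the lists, *Gm20554* and for each of the 2 the 5 genes of highest r over classes with at least 50 cells per library. The 2 genes, the lists and the hormone groups were chosen with earlier results of these data known. No p-values are given, since there is 1 library per condition. Alternatives are given in the closing section. The computations were tested on simulated data. Protein sequences were not used here, and some genes of the lists are not reported here. Tools were scanpy 1.11.5 and scipy 1.17.1, with pandas 2.3.3 and numpy 2.4.6, under python 3.11.15, and matplotlib 3.10.9.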

Additional observations from a re-analysis of the deposited data

How the results depend on the processing

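Each alternative changed 1 choice at a time. The FAKi over vehicle log2 ratio of *Irx1* in α-cells, -0.02, lay near 0 and was 0.03 as a mean over cells, 0.18 in cells under 5% mitochondrial counts and 0.81 in cluster 9, and the other log2 ratios of α-cells over β-cells, of FAKi over vehicle α-cells and of *Gcg*-led over *Ppy*-led cells kept their sign. In smaller groups, where the report gives the values, the direction turned without called doublets for *Irx1* FAKi over vehicle in *Sst*-led cells and β-cell cluster 10, and β-cells over endothelial and immune cells turned in some settings that left reference cells out. No paired analysis was possible because each condition is 1 library. Of the alternatives, 94 values stayed within the counting interval (for counts, within 1.5 times) and 40 moved beyond it. For the log2 ratio of α- over β-cells with 1 CPM added, *Irx1* was 5.86 and 5.78 in the vehicle and FAKi library and *Irx2* 5.29 and 5.83. With 0.1 CPM added *Irx1* was 7.47 and 7.27 and *Irx2* 5.96 and 6.74, with 10 CPM 3.06 and 3.04, and 3.17 and 3.43, and after subtracting the level of endothelial and immune cells *Irx2* was 6.49 and 6.73. Chosen after seeing the data, α-cells of cluster 9 alone gave 4.67 for *Irx1* and 4.28 for *Irx2* in the vehicle library, and an *Irx2* FAKi over vehicle log2 ratio of 0.91 against 0.23 in all α-cells. Also chosen after seeing the data, cells whose leading hormone was at least 2 times the next gave an *Irx2* log2 ratio of *Gcg*-led over *Ppy*-led cells of 4.39 in place of 3.26 in the FAKi library. The values in the report for hormone groups and reference cells without doublets, without single cells or without cells led by *Gcg*, and those by β-cell cluster or by class of *Ppy*-led cells, were chosen after seeing the data as well. The share of α-cells with *Irx1* moved with depth, in the vehicle and FAKi library, to 6.62% and 7.14% at 1000 UMIs, 9.70% and 11.4% at 2000 and 42.3% and 48.9% at 10000, and with *Irx2* to 9.56% and 9.45%, 16.0% and 16.9%, and 53.5% and 62.0%. Among *Gcg*-led vehicle α-cells it was 37.8% for *Irx1* and 41.8% for *Irx2*. Of the 5 genes most like *Irx1*, Spearman's rho kept 0, the vehicle library alone 2 and the FAKi library alone 2. Of those most like *Irx2*, Spearman's rho kept 0, a pseudocount of 10 CPM 2, the vehicle library alone 0 and the FAKi library alone 3. Counting genes with at least 20 UMIs, 6.96% and 8.71% were past 4-fold in α- over β-cells, and 7.21% and 4.93% were 1.5-fold higher and lower in FAKi α-cells. Depth limits the classes with few cells, such as FAKi fibroblasts and pericytes, where 3 UMIs would be 5.13 and 12.1 CPM.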
